A study of Mus musculus with 8 samples.

Results

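Many genes of the mammalian X chromosome have an autosomal copy that arose by retrotransposition of a processed transcript and that is expressed in the testis. Here 5 such testis copies and the X-linked parent gene of each were followed in the day 12 mouse testis. The 10 genes, of 24651 gene symbols with summed counts, were taken as fixed pairs by symbol, namely Pgk2 and Pgk1, Pdha2 and Pdha1, Cetn1 and Cetn2, Utp14b and Utp14a, and Rpl10l and Rpl10. The libraries came from whole testes, 1 pair of testes each, of 4 wild type and 4 Morc2b-/- males at postnatal day 12 on a mixed strain background. Morc2b-/- males carry a germline null allele in which the exon that holds the whole Morc2b coding region was replaced by a loxP-flanked PGKNeo cassette, derived from a single targeted embryonic stem cell clone. The sample labels call the controls wild type, whereas the series design text calls them Morc2b+/-, and they are called wild type here. Values for single libraries are given below in the order of replicates 1 to 4.

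During meiosis in males, the X and Y chromosomes are transcriptionally silenced as spermatocytes enter the pachytene stage, and this silencing is known to persist largely in round spermatids. X-linked genes for basic processes of the cell are then not available, and autosomal copies that lack the parent's introns are thought to take over for several of them. The 5 pairs stand for glycolysis (phosphoglycerate kinase), entry of pyruvate into the citric acid cycle (the E1 alpha subunit of pyruvate dehydrogenase), the centriole (centrin), ribosome assembly (UTP14, a part of the small subunit processome) and the ribosome itself (large subunit protein L10). Morc2b is likewise a retrotransposed copy, of the autosomal gene Morc2a.

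The libraries held 27144796 to 36941755 counts on transcripts. Morc2b was at 11.7, 16.2, 0.857 and 40.0 CPM (counts scaled to a common library size by the TMM method) in wild type and at 0.323, 0.270, 3.29 and 0.0688 CPM in Morc2b-/- testes, so the library labelled wild type replicate 3 lay below the library labelled Morc2b-/- replicate 3. A pair of libraries stood apart. The summed level of 14 spermatid markers was 308 CPM in Morc2b-/- replicate 3 and 153 CPM in wild type replicate 1, against 2.20 to 34.7 CPM in the other 6. The authors describe zygotene cells as the most advanced germ cells at day 12 and place the first round spermatids at a later age. Whether these marker counts came from spermatids was not tested. In wild type replicate 1, 11 epididymal markers (3 of them, Lcn9, Lcn5 and Rnase10, at 0) also summed to 489 CPM, against 184 to 251 CPM elsewhere, and 6 peritubular myoid markers to 1801.5 CPM, against 802 to 1023.5 CPM elsewhere. Sertoli cell markers (7200 to 8830 CPM) and leptotene and zygotene markers (2199 to 4104 CPM) were abundant in all 8 libraries. Markers of spermatogonia were at 1326 to 1775 CPM, of Leydig cells at 180 to 680 CPM and of macrophages and blood at 55.7 to 79.8 CPM. The haemoglobin genes Hba-a1 and Hbb-b1 of the last list were at 0. In these lists Gfra1, Kit, Gata4, Gdnf and Insl3 had fewer than 10 counts in all libraries together. Reads without a unique alignment, or overlapping more than 1 listed transcript, are in no count. Whether this gave the values at or near 0 was not tested, so they do not show that a cell type was absent.

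The copies lack introns in the coding region. In the NCBIM37 (mm9) annotation the coding sequence of each copy lies in 1 exon, whereas Pgk1 and Pdha1 have 11 coding exons each, Cetn2 has 5, Utp14a has 15 and Rpl10 has 6. Pgk2 (chromosome 17, 40343963 to 40345554, minus strand), Pdha2 (chromosome 3, 140872968 to 140875319, minus strand) and Rpl10l (chromosome 12, 67384368 to 67385388, minus strand) consist of a single exon. Cetn1 has 2 exons, and Utp14b (chromosome 1, 78654613 to 78664163, plus strand) has 3, the additional exons being non-coding. All 5 parents are X-linked: Pgk1 at 103382439 to 103399038, Pdha1 at 156560141 to 156576345, Cetn2 at 70158871 to 70163750, Utp14a at 45610039 to 45635630 and Rpl10 at 71516151 to 71518474.

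Copy and parent have diverged enough for a sequencing read to tell them apart. Over aligned coding bases, identity was 79.3% for Pgk2 and Pgk1, 75.6% for Pdha2 and Pdha1, 78.3% for Cetn1 and Cetn2, 77.3% for Utp14b and Utp14a, and 84.7% for Rpl10l and Rpl10. The first 75 coding bases that pair without a gap, 75 being the number of sequencing cycles, are given for 4 pairs because they show what a read of each gene looks like. Capitals mark the bases at which copy and parent differ, and all sequences run 5′ to 3′ on the strand of the gene in NCBIM37.
Pgk2, chr17:40345406-40345480, minus strand: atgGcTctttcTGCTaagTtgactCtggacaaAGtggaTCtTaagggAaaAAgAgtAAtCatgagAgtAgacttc
Pgk1, chrX:103382590-103387355, plus strand: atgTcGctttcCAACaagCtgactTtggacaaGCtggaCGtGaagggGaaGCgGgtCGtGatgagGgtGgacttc
Pdha2, chr3:140874610-140874684, minus strand: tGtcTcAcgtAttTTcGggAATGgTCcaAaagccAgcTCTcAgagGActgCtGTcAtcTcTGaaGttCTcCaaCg
Pdha1, chrX:156571125-156576222, minus strand: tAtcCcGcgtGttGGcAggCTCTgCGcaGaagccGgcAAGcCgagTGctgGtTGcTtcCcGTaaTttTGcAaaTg
Utp14b, chr1:78661034-78661108, plus strand: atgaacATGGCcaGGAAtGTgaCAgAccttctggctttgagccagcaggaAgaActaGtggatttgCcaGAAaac
Utp14a, chrX:45610120-45611565, plus strand: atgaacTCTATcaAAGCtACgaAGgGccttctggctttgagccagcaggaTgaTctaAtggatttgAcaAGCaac
Rpl10l, chr12:67385270-67385344, minus strand: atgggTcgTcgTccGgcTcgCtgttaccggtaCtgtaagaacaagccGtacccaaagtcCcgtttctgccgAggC
Rpl10, chrX:71516341-71517050, plus strand: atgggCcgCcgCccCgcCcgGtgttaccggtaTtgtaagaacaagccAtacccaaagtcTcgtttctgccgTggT

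The 4 parental stretches span an intron and are spliced from 2 exons, whereas those of the copies are continuous in the genome. In these stretches the Pgk pair differs at 22 bases, the Pdha pair at 33, the Utp14 pair at 21 and the Rpl10 pair at 11. Over the whole mRNAs, no 75-base window of any copy matched its parent's mRNA with 2 or fewer mismatches, and the closest windows had 5 to 9 mismatches. At read length, copy and parent are thus distinct within each of the 5 pairs.

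Other places in the genome do share sequence with some members, which lowers their counts because reads without a unique alignment were not assigned to any transcript. Of the 75-base windows of the Pgk1 mRNA, 91.8% also matched the genome outside Pgk1 with up to 2 mismatches, at 5 places that include the pseudogenes Pgk1-rs7 and Gm5537. For Rpl10 the share was 85.1%, over 17 places that include Rpl10-ps1, Rpl10-ps2 and Rpl10-ps3. Rpl10l had such a match in 73.5% of its windows, at the pseudogene Gm14460 on chromosome 2, but only 14.3% of its windows were identical there. The share was 3.97% for Pdha1 and 2.55% for Utp14a, and it was 0 for Pgk2, Pdha2, Cetn1, Cetn2 and Utp14b. Counts of Pgk1 and Rpl10 thus cover a small part of their mRNAs and serve for comparisons between libraries rather than as a level.

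**Figure D1:**
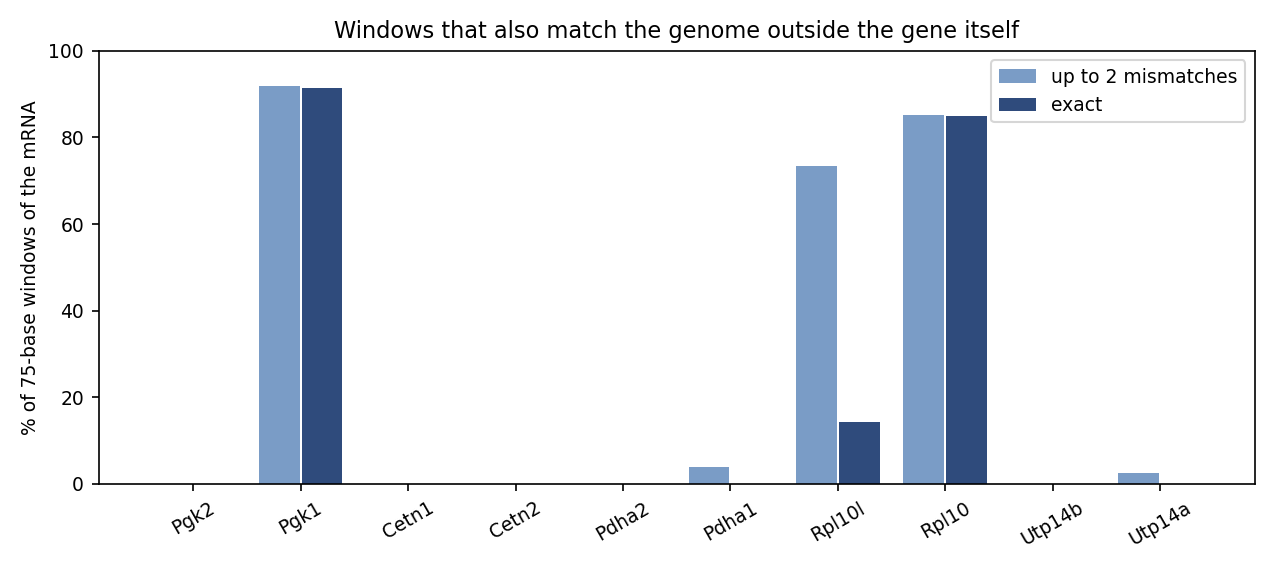
Share of 75-base windows of each member's mRNA (vertical axis, percent) that also match NCBIM37 outside the gene itself, with up to 2 mismatches (light bars) or exactly (dark bars), for the 10 members in pairs of copy and parent. Pgk1 (91.8%) and Rpl10 (85.1%) stand far above the other parents, and Rpl10l is the only copy with any such window.

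The start regions of Pgk2, Pdha2 and Rpl10l hold fewer CpG dinucleotides than those of their parents. In the RefSeq table of GRCm38.p6, which held 9 of the 10 members (Cetn1 was not among them), the 250 bases before the annotated start held 3 CG dinucleotides for Pgk2 and 17 for Pgk1. The numbers were 4 for Pdha2 and 15 for Pdha1, and 8 for Rpl10l and 13 for Rpl10. Cetn2 had 16 and Utp14a had 17. Among the member copies Utp14b was the exception, with 37, more than in 97.8% of the 32851 start regions of the table, whose median was 6. The Utp14b region (GRCm38.p6, chromosome 1, 78658190 to 78658439) lies after the start region of Acsl3 (78657575 to 78657824) on the same strand, so this number describes a stretch near the start of Acsl3 as well. Pairs outside the 5 went either way. The copy had fewer for D1Pas1 and Ddx3x (11 and 22), Gk2 and Gk (5 and 21), Timm8a2 and Timm8a1 (7 and 29) and Zrsr1 and Zrsr2 (8 and 12). It had more for Rbmxl2 and Rbmx (23 and 9), Cstf2t and Cstf2 (19 and 17) and Mcts2 (20, against 1 and 2 in the regions of Mcts1), and Rpl39l and Rpl39 had 12 each. The regions of Morc2b had 12 and 0, and those of its autosomal parent Morc2a had 39 and 0. Gykl1 and Prps1l1, named below, had no region in the RefSeq table. The Pgk pair is shown because Pgk2 has the lowest number among the member copies, with CG in capitals.
Pgk2, chr17:40208610-40208859, minus strand, GRCm38.p6: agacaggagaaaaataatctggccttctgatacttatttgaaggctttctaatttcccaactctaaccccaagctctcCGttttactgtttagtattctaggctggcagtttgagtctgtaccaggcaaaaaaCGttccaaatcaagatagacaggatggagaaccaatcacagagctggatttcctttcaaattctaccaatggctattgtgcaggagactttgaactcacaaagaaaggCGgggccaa
Pgk1, chrX:106186850-106187099, plus strand, GRCm38.p6: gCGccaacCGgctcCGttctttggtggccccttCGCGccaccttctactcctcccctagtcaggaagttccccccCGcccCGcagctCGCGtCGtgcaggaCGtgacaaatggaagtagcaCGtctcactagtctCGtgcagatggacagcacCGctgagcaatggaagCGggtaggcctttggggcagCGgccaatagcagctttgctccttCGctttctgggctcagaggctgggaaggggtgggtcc

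Short promoter motifs, none of them contained in another, were searched on both strands of these regions. TATAAA was found in the region of Pdha2 alone among the members, and in 12.4% of all regions. CCAAT was found in Pgk2 (2 matches), Pgk1 (1), Cetn2 (4), Rpl10 (2) and Utp14a (1), and in 33.9% of all regions. GGGCGG was found in Rpl10l and in the parents Pgk1, Cetn2, Rpl10 and Utp14a, and in 32.7% of all regions. A match describes the letters of the window and not a bound site.

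No member was called as different between Morc2b-/- and wild type testes. Of the 10 members, 9 passed the filter on low counts and entered the test, all but Utp14b. With the quasi-likelihood test of edgeR, adjusted by the Benjamini-Hochberg method over 13507 genes, 0 of the 9 were called at an adjusted p under 0.05, where the share called among all tested genes was 0%. At an unadjusted p under 0.05, 0 of the 9 passed, against 249 genes or 1.84% of all tested. DESeq2 called 0 of the 8 to which it gave an adjusted p, all but Pgk2. For all 9 members the adjusted p from edgeR was 0.9998, and in each the CPM values of the genotypes overlapped, where 1.29% of all tested genes had no overlap. The targeted gene Morc2b was not called either, at a log2 fold change of -4.09 with a standard error of 1.21 and an adjusted p of 0.9998 from edgeR. A member that was not called is therefore not shown to be unchanged. The authors' own comparison of these genotypes, by Cuffdiff, did call genes. The copies differed between individual libraries by up to 130-fold (Pgk2), and the parents by at most 1.32-fold (Rpl10).

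**Figure D2:**
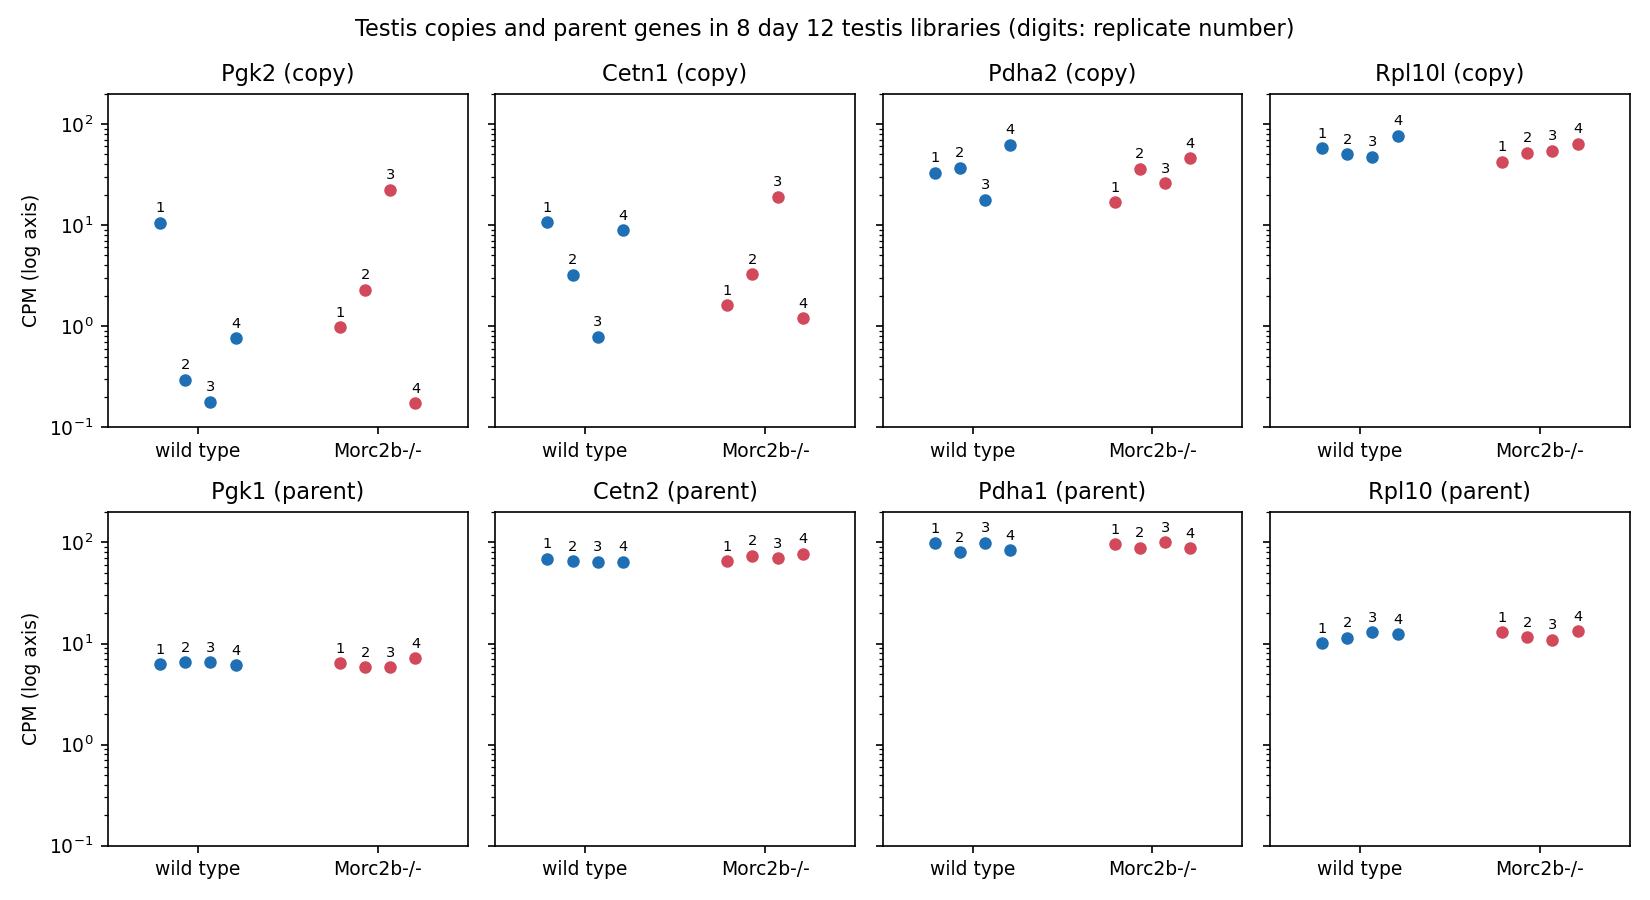
CPM on a log axis for 4 testis copies (upper row) and their parent genes (lower row) in the 4 wild type (blue) and 4 Morc2b-/- (red) libraries, with the replicate number above each point. Pgk2 and Cetn1 are highest in Morc2b-/- replicate 3 and wild type replicate 1, Pdha2 and Rpl10l are highest in wild type replicate 4, and the parents lie nearly level.

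Pgk2 encodes the phosphoglycerate kinase of late spermatocytes and sperm, which forms ATP in glycolysis. It had 388, 8, 5 and 24 counts in wild type and 30, 85, 778 and 5 counts in Morc2b-/- testes. The same values as CPM were 10.6, 0.293, 0.179 and 0.754 in wild type and 0.970, 2.30, 22.3 and 0.172 in Morc2b-/- testes. A single library of each genotype was thus high, wild type replicate 1 and Morc2b-/- replicate 3, and the other 6 were at or below 2.30 CPM. The highest library exceeded the lowest by 130-fold, and by 13.4-fold among the 6 libraries without these 2. The log2 fold change (Morc2b-/- over wild type) was 1.11 with a standard error of 1.47 (exact two-sided permutation test on log2 CPM, p = 0.600). Leaving out Morc2b-/- replicate 3 gave -1.36, leaving out wild type replicate 1 gave 3.94, and leaving out both gave 1.48, each with an adjusted p above 0.99 from edgeR.

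The order of Pgk2 among the libraries was close to that of the spermatid markers, although Pgk2 was not on that list. Summed spermatid markers were at 153, 2.82, 3.64 and 2.64 CPM in wild type and at 18.5, 34.7, 308 and 2.20 CPM in Morc2b-/- testes. The 4 libraries highest in Pgk2 were the 4 highest in these markers, in the same order. Of the 14 markers, 3 (Akap4, Catsper3 and Gapdhs) had fewer than 10 counts in all libraries together and none was at 0. The part of the spermatid signal in the Pgk2 values was not tested. In RNA from whole testes, fewer cells of a type and less RNA per cell cannot be told apart, for Pgk2 and for each member described below.

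Cetn1, on chromosome 18, encodes the centrin of male germ cells, a calcium-binding protein of the centriole. It had 392, 88, 22 and 283 counts in wild type and 50, 120, 663 and 35 counts in Morc2b-/- testes, which is 10.7, 3.23, 0.786 and 8.89 CPM against 1.62, 3.25, 19.0 and 1.20 CPM. As with Pgk2, Morc2b-/- replicate 3 and wild type replicate 1 were the highest, but wild type replicate 4 was high as well. In wild type replicate 4 spermatid markers were at 2.64 CPM, while 10 pachytene markers summed to 428 CPM, the highest of the 8 libraries. These pachytene sums were 223, 210, 122 and 428 CPM in wild type and 122, 153, 238 and 156 CPM in Morc2b-/- testes. Of the 10 markers, Clgn was at 0 and Ccna1 had fewer than 10 counts in all libraries together. The 3 libraries highest in pachytene markers were also the 3 highest in Cetn1. The authors place the first pachytene spermatocytes at a later age than day 12. Whether these marker counts came from pachytene cells, and what part such cells had in the Cetn1 values, was not tested. Cetn1 ranged over 24.2-fold between libraries, and its log2 fold change was 0.08 with a standard error of 0.96 (exact permutation test, p = 0.857). The mean log2 CPM was lower in Morc2b-/- testes, by -0.25, so the sign of the small difference depends on how libraries are weighted. In the edgeR fit, leaving out Morc2b-/- replicate 3 gave -1.54, leaving out wild type replicate 3 gave -0.28 and leaving out wild type replicate 2 gave -0.11. Leaving out both libraries with the highest spermatid marker sums gave -1.08.

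Pdha2 encodes the E1 alpha subunit of pyruvate dehydrogenase in spermatogenic cells. It had 1202, 1002, 500 and 1978 counts in wild type and 523, 1334, 901 and 1330 counts in Morc2b-/- testes. Its levels of 32.8, 36.8, 17.9 and 62.2 CPM in wild type and 16.9, 36.1, 25.8 and 45.7 CPM in Morc2b-/- testes put replicate 4 on top in both genotypes. The libraries rich in spermatid markers were in the middle of this order. The log2 fold change was -0.27 with a standard error of 0.39 (exact permutation test, p = 0.657), and the genotype means were 37.4 ± 18.4 CPM (SD, n = 4) for wild type against 31.1 ± 12.5 CPM (SD, n = 4) for Morc2b-/- testes. Without wild type replicate 4 the log2 fold change was 0.09.

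Rpl10l encodes the germ cell form of ribosomal protein L10 and is known to be needed for male meiosis. It had 2124, 1369, 1325 and 2427 counts in wild type and 1303, 1920, 1905 and 1860 counts in Morc2b-/- testes. As CPM these were 57.9, 50.2, 47.3 and 76.3 in wild type and 42.1, 51.9, 54.6 and 64.0 in Morc2b-/- testes. Replicate 4 of each genotype was again the highest and Morc2b-/- replicate 1 the lowest, as for Pdha2, over a 1.81-fold range where that of Pdha2 was 3.68-fold. The log2 fold change of Rpl10l was -0.13 with a standard error of 0.17 (exact permutation test, p = 0.571). Without wild type replicate 4 it was 0.03.

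The highest and lowest libraries of Pdha2 and Rpl10l were also at the extremes of markers of early meiosis. Leptotene and zygotene markers summed to 2872, 3970, 2461 and 4059 CPM in wild type and to 2199, 3088, 2391 and 4104 CPM in Morc2b-/- testes. Replicate 4 of both genotypes was highest and Morc2b-/- replicate 1 lowest in these markers, in Pdha2 and in Rpl10l alike. Between these extremes the orders differed: wild type replicate 2 was close to the highest libraries in these markers but, at 50.2 CPM, below 5 other libraries in Rpl10l. All 10 markers of that list had at least 10 counts, and their part in the values of the copies was not tested.

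**Figure D3:**
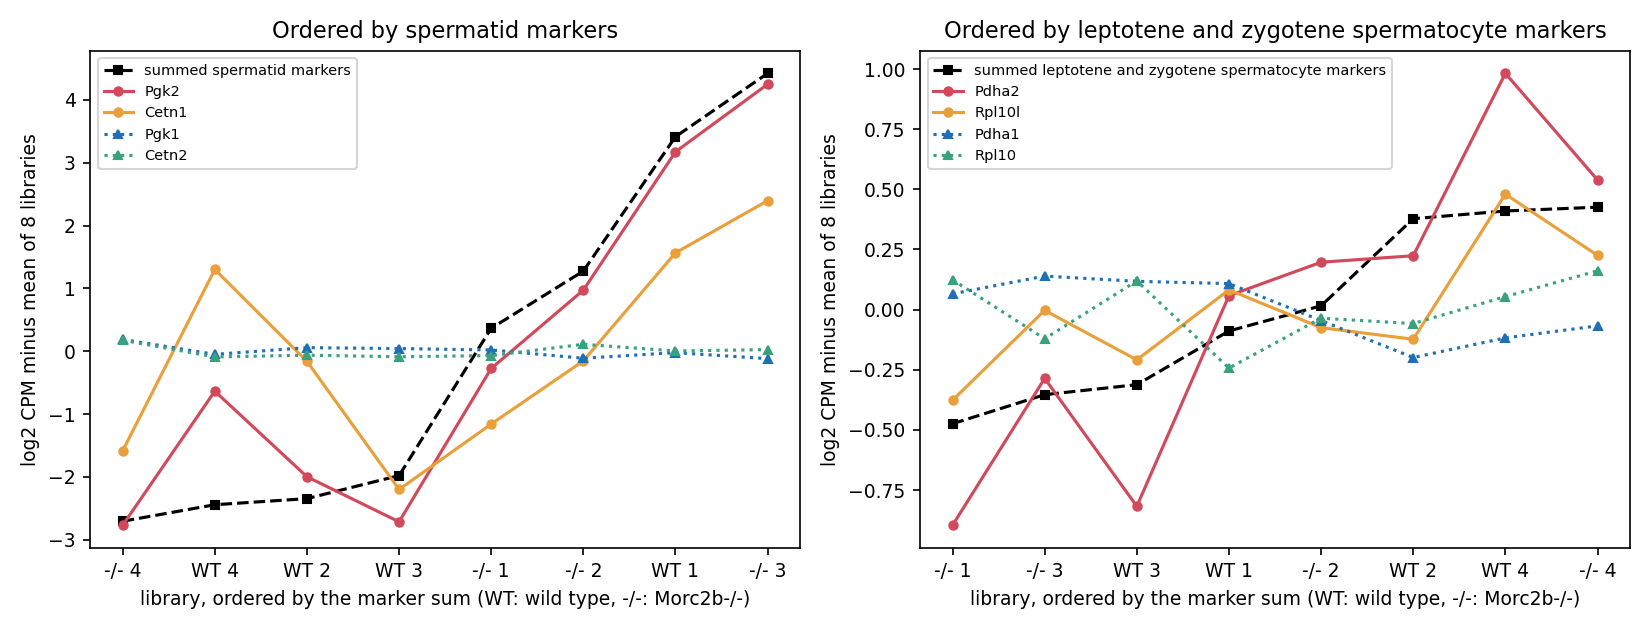
Members and summed markers as log2 CPM minus their mean over 8 libraries (vertical axis), with libraries ordered from the lowest to the highest sum of 14 spermatid markers (left) or 10 leptotene and zygotene markers (right). On the left Pgk2 (red) stays close to the spermatid sum (black, dashed) while Cetn1 (orange) departs from it in wild type replicate 4. On the right Pdha2 and Rpl10l peak in wild type replicate 4, although Rpl10l is low in wild type replicate 2, and the parents (dotted) stay near 0 in both panels.

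Utp14b, whose loss underlies the juvenile spermatogonial depletion mutation, had too few counts to compare. It had 2, 3, 2 and 1 counts in wild type and 0, 2, 0 and 2 counts in Morc2b-/- testes, 12 in all. The counts list 2 Utp14b transcripts, and 1 of them is at 0 throughout. Reads that overlap more than 1 listed transcript were set aside, and whether this gave the low counts of Utp14b was not tested. Utp14b also lies inside Acsl3 (78654400 to 78703562) on the same strand and shares 206 of its 3755 exonic bases, though 0 of its 2340 coding bases, with Acsl3 exons. All 3 listed transcripts of Acsl3 were at 0 as well. The 12 counts therefore give neither a level nor a genotype difference. In any case a count of 0 can arise by sampling where about 3 counts are expected.

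The parent genes varied little. Pgk1, the somatic phosphoglycerate kinase gene, was at 6.21, 6.57, 6.50 and 6.10 CPM in wild type and at 6.40, 5.84, 5.82 and 7.19 CPM in Morc2b-/- testes, with a log2 fold change of -0.01 and a standard error of 0.11 (exact permutation test, p = 0.886). The mutant allele carries a cassette named for the Pgk1 promoter, and Pgk1 counts were 179 to 228 in wild type and 198 to 216 in Morc2b-/- libraries. Pdha1, the somatic E1 alpha subunit gene, was at 98.5, 79.6, 99.1 and 84.2 CPM in wild type and at 95.6, 88.5, 100.6 and 87.2 CPM in Morc2b-/- testes, with a log2 fold change of 0.04 and a standard error of 0.09 (p = 0.629 in the same permutation test).

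Cetn2, a centrin of all cells that also acts in nucleotide excision repair, was at 68.7, 65.6, 64.5 and 64.3 CPM in wild type and at 65.3, 73.9, 69.7 and 77.4 CPM in Morc2b-/- testes. Its log2 fold change of 0.12 with a standard error of 0.07 had the lowest p among the members (exact permutation test, p = 0.0857, where 0.0286 is the lowest that 4 against 4 libraries allow), and 3 of the 4 Morc2b-/- libraries were above every wild type library. Utp14a, which acts in processing of the small subunit rRNA, was at 57.8 to 61.8 CPM in wild type and 59.1 to 65.8 CPM in Morc2b-/- testes, with a log2 fold change of 0.03 and a standard error of 0.06. Rpl10 was at 10.003, 11.4, 12.9 and 12.3 CPM in wild type and at 12.9, 11.5, 10.9 and 13.2 CPM in Morc2b-/- testes, with a log2 fold change of 0.06 and a standard error of 0.11 (exact permutation test, p = 0.514). The exact permutation p for Utp14a was 0.629. The X-linked genes other than the members, 1057 in number, together took 3.28%, 3.34%, 3.47% and 3.40% of the counts in wild type. In Morc2b-/- libraries they took 3.53%, 3.49%, 3.40% and 3.64%, and the genotypes overlapped.

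The contrast between variable copies and steady parents was expressed as the standard deviation (SD) of log2 CPM over the 8 libraries. It was 2.47 for Pgk2, 1.60 for Cetn1, 0.64 for Pdha2 and 0.27 for Rpl10l. Among the 13507 genes tested, 99.7%, 99.0%, 94.6% and 65.9% had a lower SD than these 4 copies, respectively. Genes were not matched for level in this comparison. Counting error widens the SD at low counts, such as the 5 counts of Pgk2 in wild type replicate 3, and its part was not tested. The parents had SDs of 0.057 (Utp14a) to 0.139 (Rpl10), all 5 below the median of 0.191 over all tested genes. Each copy was more variable than its parent in the 4 pairs measured. Over the 6 libraries other than wild type replicate 1 and Morc2b-/- replicate 3, the SD was 1.33 for Pgk2, 1.22 for Cetn1, 0.75 for Pdha2 and 0.31 for Rpl10l. Variation lay within genotypes: the SD around the genotype means was 2.61 for Pgk2, 1.72 for Cetn1, 0.68 for Pdha2 and 0.28 for Rpl10l, no smaller than the SD over all 8 libraries.

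**Figure D4:**
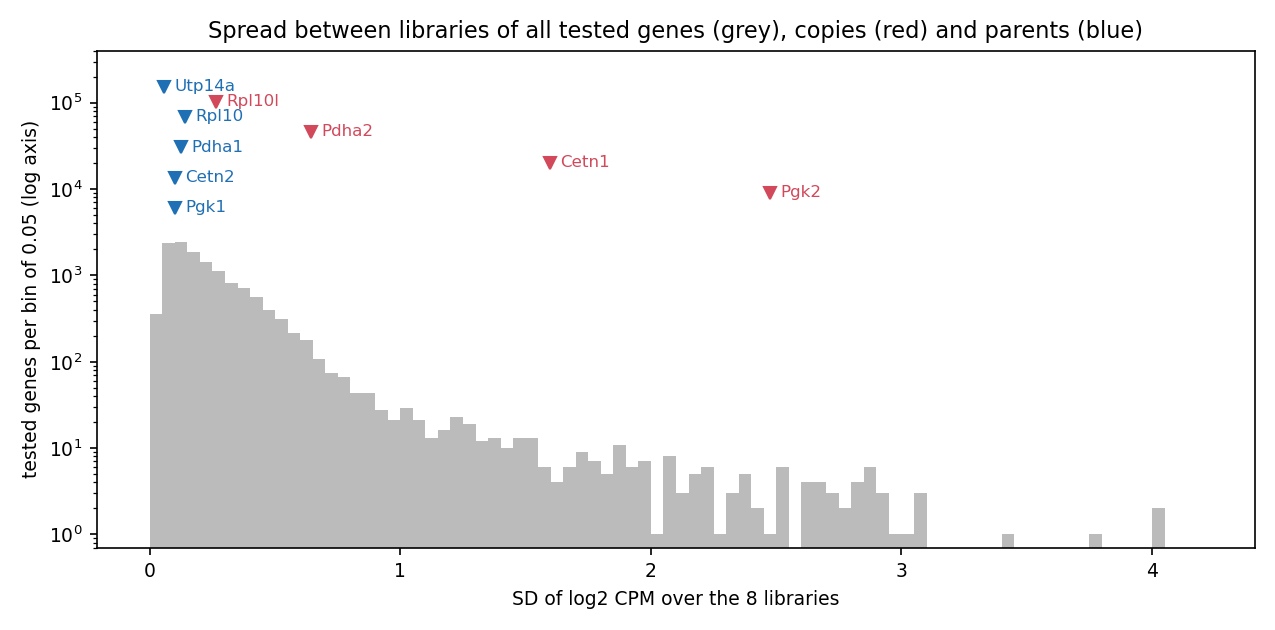
Number of tested genes (vertical log axis) by the SD of their log2 CPM over the 8 libraries (horizontal axis, bins of 0.05), with triangles at the SD of each copy (red) and parent (blue), whose height carries no value. The parents lie at 0.057 to 0.139 within the bulk of all genes, and Pgk2 (2.47) and Cetn1 (1.60) lie in its far upper tail.

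To ask whether copy and parent move apart between the genotypes, the count of the copy was divided by that of its parent within each library, a ratio that does not depend on library size. For Pgk2 and Pgk1 the ratio was 1.70, 0.0474, 0.0301 and 0.126 in wild type and 0.154, 0.395, 3.83 and 0.0263 in Morc2b-/- testes. Counts of Pgk2 exceeded those of Pgk1 in the same 2 libraries only, and Pgk1 counts are lowered by its pseudogenes, so the ratio compares libraries and not the levels of the genes. On the log2 scale the ratio averaged -2.92 ± 2.60 (SD, n = 4) for wild type against -1.84 ± 2.99 (SD, n = 4) for Morc2b-/- testes, a difference of 1.08 (exact permutation test, p = 0.571), and without Morc2b-/- replicate 3 the difference was -0.18.

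For the other 3 pairs with usable counts, the ratios differed less between the genotypes. The ratio of Cetn1 to Cetn2 was 0.156, 0.0495, 0.0125 and 0.138 in wild type and 0.0250, 0.0441, 0.273 and 0.0158 in Morc2b-/- testes, a log2 difference of -0.37 (exact permutation test, p = 0.800). That of Pdha2 to Pdha1 was 0.333, 0.462, 0.180 and 0.738 in wild type and 0.177, 0.408, 0.257 and 0.525 in Morc2b-/- testes, a log2 difference of -0.27 (exact permutation test, p = 0.629). Pdha1 thus had more counts than Pdha2 in every library. For Rpl10l and Rpl10 the ratio was 5.78, 4.41, 3.68 and 6.20 in wild type and 3.26, 4.49, 5.01 and 4.83 in Morc2b-/- testes, a log2 difference of -0.18 (exact permutation test, p = 0.486). The difference for Cetn1 and Cetn2 was 0.08, 0.03 and 0.15 without wild type replicate 1, wild type replicate 4 and Morc2b-/- replicate 4, and that for Pdha2 and Pdha1 was 0.05 without wild type replicate 4 and 0.007 without Morc2b-/- replicate 1. The ratio of Utp14b to Utp14a, a log2 difference of -1.22 (exact permutation test, p = 0.171), rests on the 12 counts of Utp14b and the added pseudocount and was set aside, and in none of the 4 pairs did the genotypes separate.

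**Figure D5:**
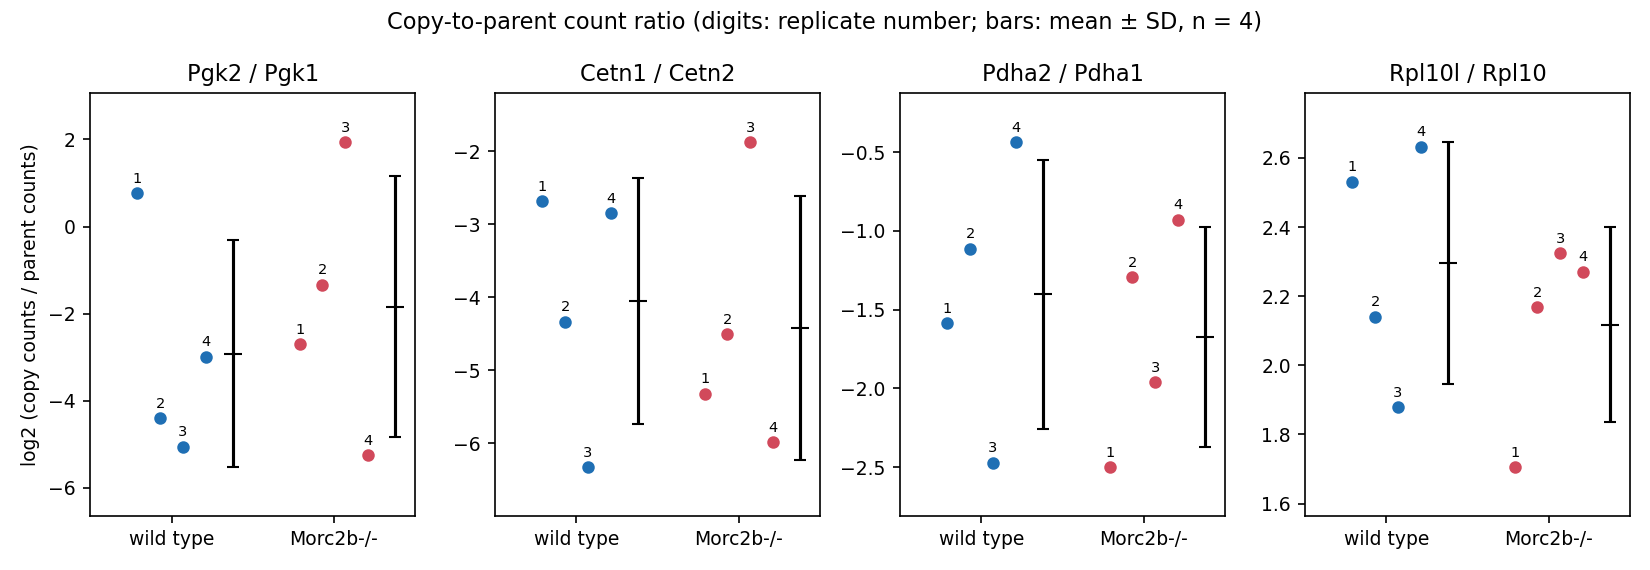
Log2 of the count of each copy over the count of its parent in the same library (vertical axes, a different range in each panel), for wild type (blue) and Morc2b-/- (red) libraries numbered by replicate, with mean and SD of 4 libraries beside the points. The genotypes overlap in all 4 pairs, and the spread shrinks from Pgk2 / Pgk1 to Rpl10l / Rpl10.

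Levels of different genes can be set side by side only per length. As CPM per kilobase of mRNA, the medians over 8 libraries were 52.2 for Cetn2 and for Rpl10l, 32.3 for Pdha1, 24.05 for Utp14a, 14.6 for Pdha2, 13.9 for Rpl10, 3.46 for Pgk1, 2.60 for Cetn1 and 0.541 for Pgk2. On this scale the ranges of Cetn2 (50.0 to 60.2) and Rpl10l (41.3 to 74.7) overlapped, as did that of Pdha2 (7.19 to 26.4) with both Utp14a (23.1 to 26.3) and Rpl10 (11.7 to 15.5). The range of Cetn1 (0.630 to 15.2) overlapped those of Pdha2, Rpl10, Pgk1 (3.19 to 3.94) and Pgk2 (0.108 to 14.0). That of Pgk2 also overlapped those of Pdha2, Rpl10 and Pgk1. Pdha1 (27.9 to 35.3) overlapped neither neighbour.

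The length that can yield a unique read alters this order. As CPM per 1000 windows without an exact match elsewhere, the medians were 101.0 for Rpl10, 65.6 for Rpl10l, 55.4 for Cetn2, 41.8 for Pgk1, 33.2 for Pdha1, 24.8 for Utp14a, 15.1 for Pdha2, 2.76 for Cetn1 and 0.568 for Pgk2. Rpl10 thereby moved above Rpl10l, and on this scale the median of the parent was above that of the copy in each of the 4 measured pairs. For Pgk1 and Rpl10 the scale rests on a small part of their mRNAs, so their values are not firm levels. When windows that match elsewhere with up to 2 mismatches were also left out, Rpl10l was at 212 and Rpl10 at 103, so the order of these 2 genes depends on how unique reads are defined. The order of the other 3 pairs, parent above copy, was the same under both definitions in the medians, while single libraries of Pgk2 reached 14.7 and of Cetn1 16.2 on this scale.

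A further 11 retrotransposed copies and their 10 parents were examined to see whether the pattern extends beyond the 5 pairs. Whether each of these copies is particular to the testis was not tested. Gk2 and Gykl1, copies of the glycerol kinase gene Gk, and Prps1l1, a copy of the phosphoribosyl pyrophosphate synthetase gene Prps1, were distributed like Cetn1. In each of them Morc2b-/- replicate 3 was the highest library and wild type replicates 1 and 4 followed. Gk2 had 341, 96, 11 and 350 counts in wild type and 31, 93, 585 and 30 counts in Morc2b-/- testes. Gykl1 ranged over 116-fold and Prps1l1 over 186-fold between libraries, where Gk2 ranged over 42.7-fold.

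D1Pas1, a copy of the RNA helicase gene Ddx3x, had 62.2 to 129 CPM in wild type and 61.6 to 103 CPM in Morc2b-/- testes and was highest in wild type replicate 4 and lowest in Morc2b-/- replicate 1, as were Pdha2 and Rpl10l. The copies Cstf2t, Rbmxl2, Timm8a2, Zrsr1, Mcts2 and Rpl39l ranged over 1.18-fold (Mcts2) to 1.92-fold (Rbmxl2). Not every copy was variable or more variable than its parent. The SD of log2 CPM was 0.085 for Cstf2t and 0.207 for Cstf2, 0.15 for Timm8a2 and 0.20 for Timm8a1, and 0.070 for Mcts2 and 0.164 for Mcts1. The median SD of log2 CPM was 0.30 over these 11 copies and 1.12 over the 4 measured members. The parents Cstf2, Rbmx, Ddx3x, Prps1, Timm8a1, Zrsr2, Mcts1, Rpl39 and Morc2a ranged over 1.18-fold to 1.54-fold, with a median SD of 0.20 (5 of the 9 above the median of all tested genes), and Gk, listed under 5 transcripts, was at 0 counts and not measurable. None of the 20 genes tested was called, and Morc2b itself had the largest difference, with a log2 fold change of -4.09, a standard error of 1.21 and an adjusted p of 0.9998 from edgeR (exact permutation test, p = 0.0571).

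The pathways in which the members act were described by their counts and medians, since 0% of all tested genes were called between the genotypes. Of 26 glycolysis genes 17 were tested, and 0 were called in either direction, with a median log2 fold change of 0.05 against 0.002 over all tested genes. The largest difference was that of Ldha, the lactate dehydrogenase A gene (log2 fold change -1.19, standard error 0.87), on only 129 counts in all libraries together. Of 13 genes of the pyruvate dehydrogenase complex, its regulators and the mitochondrial pyruvate carrier, 12 were tested and 0 called (median -0.01), the largest difference being that of the E1 beta subunit gene Pdhb (-0.11, standard error 0.16). Like Pdha2, Pdhb was highest in wild type replicate 4, over a 1.71-fold range.

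Among 14 genes of the centriole and of centrin partners, 11 were tested and 0 called, with a median log2 fold change of -0.04 and the largest difference in Cep290, a gene of the ciliary transition zone (-0.37, standard error 0.22). The 33 genes of the small subunit processome, in which UTP14 acts, were the steadiest group, with 32 tested, 0 called, a median of -0.002 and a median SD of 0.069 over libraries. Their largest difference was that of the helicase gene Dhx37 (-0.10, standard error 0.07). Of 49 large subunit ribosomal protein genes 41 were tested and 0 called (median 0.02). Rpl28 differed most among them, at 2.01 to 2.64 CPM in wild type and 1.54 to 1.81 CPM in Morc2b-/- testes, with a log2 fold change of -0.43 and a standard error of 0.17. It was the only gene of this list with an unadjusted p under 0.05 in edgeR, where glycolysis also had 1 such gene, the other pathway lists had 0, and the share over all tested genes was 1.84%. The genotypes did not overlap for Rpl28, as was the case for 1.29% of all tested genes, and its adjusted p from edgeR was 0.9998. The exact permutation test gave p = 0.0286, the lowest that 4 against 4 libraries allow. Rpl28 had only 79, 72, 59 and 64 counts in wild type and 56, 57, 60 and 45 counts in Morc2b-/- testes. Whether reads left out of the counts made these values low was not tested.

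The genes most like each copy across the 8 libraries were identified by Pearson's r of log2 CPM, given as a description because libraries share cell types and depth. For Pgk2 these were Cmtm2b (r = 0.990), 1700001J11Rik (0.990) and Gm5142 (0.984), whose levels were at most 10.9 CPM and highest in Morc2b-/- replicate 3. For Cetn1 they were Pbp2 (0.995), the retrotransposed copy Gykl1 (0.992) and Pabpc2, which encodes a poly(A)-binding protein (0.992). Pdha2 was closest to Ermp1 (0.995), 1700029P11Rik (0.995) and Kbtbd6 (0.994). Ermp1 ranged only from 94.4 to 122.5 CPM, where Kbtbd6 ranged from 15.8 to 47.8 CPM, since r does not measure the size of a change. Rpl10l was closest to Sdhd, a subunit gene of succinate dehydrogenase (0.983), Serf1 (0.982) and Ciao2a (0.976), at 193.8 to 229.0 CPM, 46.4 to 69.6 CPM and 64.6 to 80.3 CPM, respectively.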

How the data were processed

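RNA from whole testes of 4 wild type and 4 Morc2b-/- males at postnatal day 12 was made into stranded mRNA libraries and sequenced for 75 cycles in 1 pool of 8. The authors trimmed the reads, aligned them to mm9 by Tophat and deposited raw read counts for each RefSeq transcript, 1 file per sample and not normalized. Which program counted the reads, with which strand setting and annotation release, is not given in the sources used here. Reads without a unique alignment, and reads overlapping more than 1 listed transcript (26.8% to 28.8% of uniquely aligned reads), are in no transcript's count.

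Of 35819 transcripts, 35522 were matched to a symbol and summed, and the remaining 297, with 0.484% of the counts, were kept singly. Genotypes were compared with edgeR 4.0.16 (R 4.3.3; TMM, filterByExpr, quasi-likelihood test, genotype only) and Benjamini-Hochberg adjustment, with a threshold of 0.05. DESeq2 1.42.0 was an alternative. Single genes, as log2 CPM with 2 as prior count, were compared by exact two-sided permutation tests. Log2 ratios of raw counts (pseudocount 0.5) were compared by the same test. With all 8 libraries there were 70 splits, and fewer where a library was left out. Depth of 27144796 to 36941755 counts sets the counting error only.

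Windows of 75 bases of annotated mRNAs were matched to NCBIM37 with up to 2 mismatches, and coding sequences were aligned with Biopython 1.88. Start regions are from RefSeq. Figures were drawn with matplotlib 3.10.9. The fitting procedure was tested on simulated data.

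The members, the marker lists and the pathway lists were chosen with earlier results of these data known. Genes named are all 10 members, Morc2b, the gene with the largest fold change of each list, the other retrogene pairs, and the 3 genes closest to each copy. Correlations, summed markers and lists carry no test.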

Additional observations from a re-analysis of the deposited data

Results flagged for a closer look

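Among 26 sets of 4 libraries examined (members and ratios in each genotype), 3 contained a library whose gap to the nearest other library was too large a share of the whole range by Dixon's criterion, which chance alone meets in about 1 in 20 such sets. Pgk2 stood at 10.575 CPM in wild type replicate 1, where the other wild type libraries were at 0.179 to 0.754 CPM. Pgk2 stood at 22.288 CPM in Morc2b-/- replicate 3, where the other Morc2b-/- libraries were at 0.172 to 2.30 CPM. Cetn1 stood at 18.993 CPM in the same Morc2b-/- library, above 1.20 to 3.25 CPM in the others. These values are CPM on a linear scale. None of the 8 sets of log2 ratios of copy to parent, those of Pgk2/Pgk1 and Cetn1/Cetn2 in the same libraries included, met the criterion. The 2 libraries named are those with the highest summed spermatid markers, 153 and 308 CPM, and the part of that signal in the values was not tested.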

How the results depend on the processing

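Of 215 values recomputed under alternative settings, 192 kept their direction and their side of the threshold, 22 changed sign without passing it, and 1 count changed. Among all tested genes DESeq2 called 1 gene, Pkmyt1, where edgeR called 0, and no setting called a member or a gene of the lists (DESeq2 gave Pgk2 no adjusted p). With 1 library left out at a time, log2 fold changes ranged from -1.358 to 3.942 for Pgk2, -1.539 to 0.540 for Cetn1, -0.509 to 0.091 for Pdha2, -0.227 to 0.033 for Rpl10l, -0.078 to 0.029 for Pgk1, -0.013 to 0.088 for Pdha1, -0.009 to 0.046 for Utp14a, -0.004 to 0.113 for Rpl10 and, with 1 sign throughout, 0.081 to 0.162 for Cetn2. The sign of Pgk1 turned without wild type replicates 2 or 3 or Morc2b-/- replicates 2 or 3, that of Pdha1 without wild type replicate 2, that of Rpl10 without wild type replicate 1 and that of Utp14a without Morc2b-/- replicate 1, all from values near 0. Log2 ratio differences ranged from -0.179 to 2.308 for Pgk2/Pgk1, -0.625 to 0.053 for Pdha2/Pdha1, -1.221 to 0.149 for Cetn1/Cetn2 and -0.318 to -0.042 for Rpl10l/Rpl10. Without the 2 libraries richest in spermatid markers, a setting chosen after seeing the data, Cetn1 was at -1.084 and Pgk1 at 0.015. The sample numbers were not treated as pairs, because deviations of same-numbered libraries correlated at -0.322 to 0.453 (mean 0.0548 over 4 pairs), against a mean of -0.0156 over 12 others. With a replicate block in the model, 0 genes were called (572 at an unadjusted p under 0.05 in edgeR), Cetn1 turned to -0.671 and Pgk2 was at 0.836. In each case the cause was not tested. Utp14b, with 12 counts, did not enter the main edgeR test, and no fold change is given for it under any setting.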

Other observations

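Among the measured copies with a range of at least 1.81-fold between libraries, Pgk2, Cetn1, Gk2, Gykl1 and Prps1l1 peaked in Morc2b-/- replicate 3, Pdha2, Rpl10l, D1Pas1 and Morc2b peaked in wild type replicate 4, and Rbmxl2 peaked in wild type replicate 1. Cetn1, Gykl1 and Prps1l1 were also high in wild type replicate 4, at 8.89, 3.58 and 4.78 CPM, where Pgk2 was at 0.754 CPM. Wild type replicate 3 was at 0.786 CPM for Cetn1, 0.393 CPM for Gk2, 0.107 CPM for Gykl1 and 0.0357 CPM for Prps1l1, the lowest of the 8 libraries for each of these 4 copies. Morc2b was lowest among the wild type libraries in the same library, at 0.857 CPM, and highest in wild type replicate 4, at 40.0 CPM. Prps1l1 in wild type replicate 3 rests on 1 count and Gykl1 on 3 counts.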
